A study of Mus musculus with 2 samples.

Results

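The Mir17 cluster is a group of 6 microRNA (miRNA) hairpins, Mir17, Mir18, Mir19a, Mir20a, Mir19b-1 and Mir92-1, carried by 1 host transcript. The members were taken by gene symbol in GENCODE M21 and make up 6 of the 2202 miRNA genes counted. Total RNA was taken 10 days after birth from the cerebral cortex, left side only, of males of the strain B6CASTF1/J, an F1 hybrid of B6 and CAST. There was 1 group of 2 biological replicates, with no other age, tissue, sex or treatment to compare. Their labels number the replicates under a shared donor entry, and that they came from separate males is inferred from this numbering. Reads were counted per hairpin and not per arm, so a value sums the reads of both strands of the stem. Replicate 1 held 2677910 reads assigned to miRNA genes on their own strand and replicate 2 held 1750076. Levels are given in CPM, reads of a gene scaled to the assigned total of its library, and a gene at 2 CPM or more in both libraries is called detected.

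The cluster is transcribed as a single primary RNA, from which the hairpins are cut one by one in the nucleus. It is a known target of the growth regulators MYC and E2F, is amplified in lymphoma, and is often called an oncogenic miRNA cluster. In the developing cortex it is known for promoting the expansion of neural progenitor cells. Its miRNAs fall into families by the seed, bases 2 to 8 of the mature strand, which pairs with target messages.

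The mature strands show which members share a seed and which differ from each other by few bases. They are given for the arm under which each miRNA is best known, as RefSeq lists them on GRCm38.p6, with the seed in capitals. All 17 genes looked up, the members and the 11 related genes described further on, were found in RefSeq, and all 17 RefSeq hairpins were identical to those of M21.
miR-17-5p of Mir17: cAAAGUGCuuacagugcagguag
miR-20a-5p of Mir20a: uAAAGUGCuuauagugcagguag
miR-18a-5p of Mir18: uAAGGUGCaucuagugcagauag
miR-19a-3p of Mir19a: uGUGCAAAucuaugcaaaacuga
miR-19b-3p of Mir19b-1: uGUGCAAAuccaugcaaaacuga
miR-92a-3p of Mir92-1: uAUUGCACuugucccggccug

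Mir17 and Mir20a share the seed of the miR-17 family, and Mir19a and Mir19b-1 share that of the miR-19 family. Mir18 and Mir92-1 each carry a seed found in no other member. miR-19a-3p differs from miR-19b-3p at a single base, U11C, counted from 1 at the 5′ end with the base of miR-19a-3p first. miR-20a-5p differs from miR-17-5p at 2 positions, U1C and U12C.

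For 2 of the 6 members the arm shown also occurs whole in another listed hairpin, which matters for reads that map to more than 1 place. The deposited counts list such reads in a row apart from the genes, and they are taken here to be counted for no gene. That is an inference, since no source used here states the counting rule. miR-19b-3p lies whole in Mir19b-2 and miR-92a-3p lies whole in Mir92-2, both on the X chromosome. The hairpins that share these strands are shown with the longest stretch they have in common in capitals.
Mir19b-1: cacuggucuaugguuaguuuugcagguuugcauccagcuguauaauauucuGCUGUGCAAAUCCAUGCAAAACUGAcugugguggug
Mir19b-2: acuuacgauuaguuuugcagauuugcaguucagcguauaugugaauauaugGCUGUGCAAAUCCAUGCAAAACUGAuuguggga
Mir92-1: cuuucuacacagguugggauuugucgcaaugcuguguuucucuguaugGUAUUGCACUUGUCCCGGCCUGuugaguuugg
Mir92-2: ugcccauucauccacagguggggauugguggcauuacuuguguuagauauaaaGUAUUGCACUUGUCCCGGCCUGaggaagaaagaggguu

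The stretch shared by Mir19b-1 and Mir19b-2 is 25 bases long and that shared by Mir92-1 and Mir92-2 is 22 bases long, and each is longer than the mature strand it holds. An exact read that lies inside such a stretch fits both genes. Under that reading, reads counted for these genes had to reach outside the stretch, come from the other arm, or carry a base that the other copy lacks. The arms shown for the other 4 members occur whole in no other of the 2202 listed hairpins. The counts of Mir19b-1 and Mir92-1 are taken to leave out reads that fit both copies. As mature miRNAs, these 2 members thus cannot be ranked against the other 4.

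The hairpins lie within 836 bases of the plus strand of chromosome 14 (mm10), in the order in which they are named above. Mir17 lies at chr14:115043671-115043754, Mir18 at chr14:115043851-115043946 and Mir19a at chr14:115044000-115044081. Mir20a lies at chr14:115044157-115044263, Mir19b-1 at chr14:115044305-115044391 and Mir92-1 at chr14:115044427-115044506. Their gene identifiers are ENSMUSG00000065508.1 (Mir17), ENSMUSG00000065403.1 (Mir18), ENSMUSG00000065416.1 (Mir19a), ENSMUSG00000065442.1 (Mir20a), ENSMUSG00000076256.1 (Mir19b-1) and ENSMUSG00000076062.1 (Mir92-1). All 6 fall in exon 2 of the annotated transcript of Mir17hg, a long noncoding RNA gene at chr14:115042879-115046727 that serves as the host of the cluster. The gaps between neighbours are 96, 53, 75, 41 and 35 bases in that order. The hairpins are 80 to 107 bases long with 43.7% to 47.5% GC. The folding energies predicted by RNAfold run from -29.2 kcal/mol for Mir18 to -38.7 kcal/mol for Mir19a.

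Together the 6 hairpins held 13647 of the assigned reads in replicate 1 and 9416 in replicate 2. As a share of the assigned reads this was 0.510% (95% Wilson interval 0.501 to 0.518) and 0.538% (0.527 to 0.549). The mean was 0.524% ± 0.0201 (SD, n = 2), and the log2 ratio of replicate 2 over replicate 1 was 0.08. The cluster as a whole thus took nearly the same share of both libraries. All intervals describe counting error alone. PCR copies of a molecule are counted as separate reads, so the intervals can be too narrow even for that. In whole tissue, fewer cells of a type and less RNA per cell cannot be told apart.

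Of the 6 members 4 were detected, against 442 (20.1%) of all listed genes. By counted reads Mir17 was the highest member, with 7774 reads (2903 CPM) in replicate 1 and 6328 reads (3616 CPM) in replicate 2. Its mean was 3259 ± 504 CPM (SD, n = 2). It ranked 59th of the 442 detected genes by mean CPM. Its strand miR-17-5p is the namesake of a family that represses inhibitors of the cell cycle.

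Mir92-1 had 2785 reads (1040 CPM) and 1169 reads (668 CPM) in replicates 1 and 2, a mean of 854 ± 263 CPM. Mir20a, whose strand has the seed of miR-17-5p, had 2226 reads (831 CPM) and 1469 reads (839 CPM), a mean of 835 ± 5.76 CPM. These neighbours in the order did not differ beyond their spread. In CPM, Mir92-1 was above Mir20a in replicate 1 and below it in replicate 2. Divided by hairpin length, Mir92-1 was above in both, at 13.0 against 7.77 CPM per base in replicate 1 and 8.35 against 7.84 CPM per base in replicate 2. This was the only place in the order of the members that dividing by length changed.

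Mir18, the only member with the miR-18 seed, had 852 reads (318 CPM) and 446 reads (255 CPM), a mean of 287 ± 44.8 CPM. Its values in the libraries did not overlap those of Mir20a or Mir92-1 above it. In both libraries Mir17 was the highest member and Mir18 the lowest of those detected.

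The miR-19 members were nearly absent from the counts. Mir19a had 7 reads in replicate 1 and 3 in replicate 2, or 2.61 and 1.71 CPM, and fell short of the 2 CPM minimum in replicate 2. Mir19b-1 had 3 reads and 1 read, or 1.12 and 0.571 CPM. The level of 3 reads is 1.12 CPM in replicate 1 and 1.71 CPM in replicate 2, so Mir19b-1 was at or under that level in both libraries. The counts of Mir19a and Mir19b-1 had overlapping intervals and their order cannot be told.

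The low count of Mir19a differs from that of Mir19b-1 in one respect. miR-19b-3p has an identical copy, whereas miR-19a-3p has none in the listed hairpins. The longest exact stretch that the hairpin of Mir19a shares with any other listed hairpin is 13 bases, the same length as for Mir17. An exact stretch does not cover reads that fit with a mismatch, and miR-19a-3p differs from miR-19b-3p at a single base. Copies outside the listed hairpins were not searched. The counts of Mir17 were 1111 times those of Mir19a in replicate 1 (exact binomial 95% interval 539 to 2763) and 2109 times in replicate 2 (721 to 10231). Set against Mir19b-1, they were 2591 times as high in replicate 1 (886 to 12568) and 6328 times in replicate 2, where the interval runs from 1135 to 249982 because it rests on 1 read. The reason for the low count of Mir19a was not tested.

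**Figure D1:**
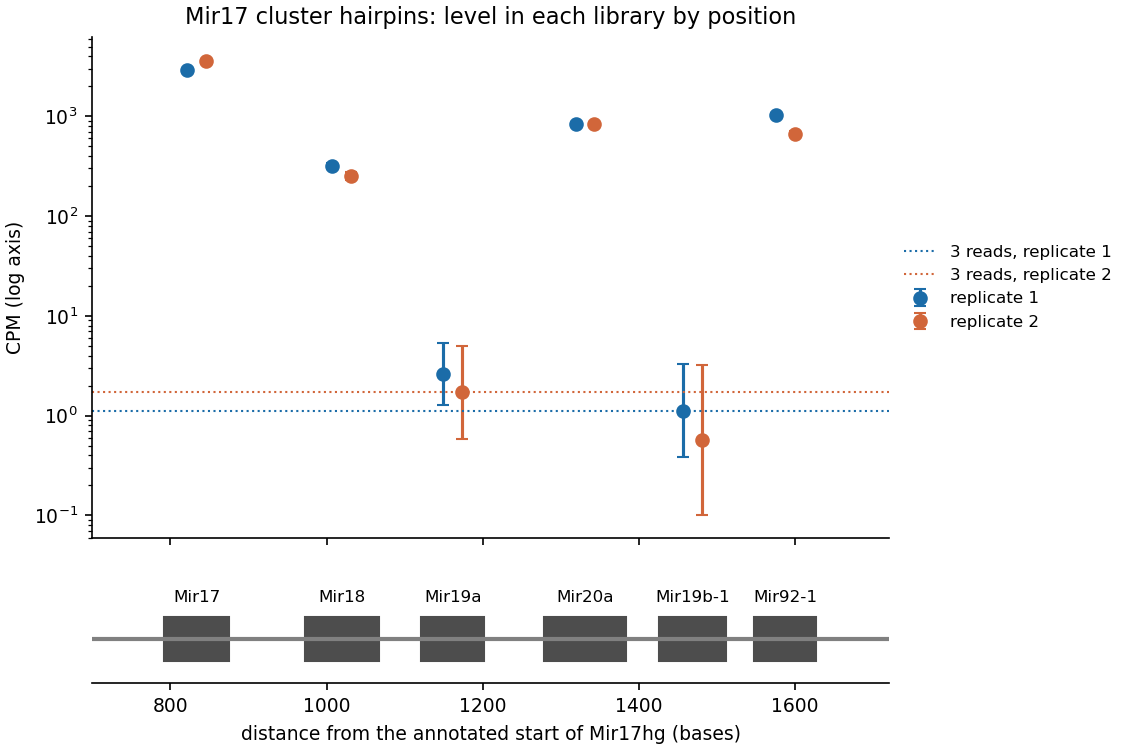
CPM (log axis) of each hairpin in replicates 1 and 2 against the distance of the hairpin from the annotated start of Mir17hg in bases, with 95% Wilson intervals, and below it the hairpins drawn to scale. Mir17, Mir18, Mir20a and Mir92-1 lie between 255 and 3616 CPM, while Mir19a and Mir19b-1, which lie between them on the transcript, stand near the dotted levels of 3 reads.

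Within the cluster, the shares of reads held by Mir17, Mir18 and Mir92-1 had intervals that did not overlap between the libraries, while those of Mir20a, Mir19a and Mir19b-1 overlapped. Mir17 held 56.96% of the cluster's reads in replicate 1, with a 95% Wilson interval from 56.1 to 57.8, and 67.2% in replicate 2, from 66.2 to 68.1. Mir92-1 held 20.4% (19.7 to 21.1) and 12.4% (11.8 to 13.1). Shares within the cluster are parts of a whole, so the larger share of Mir17 in replicate 2 left less for the other members together. The shares of Mir92-1 and Mir18 were smaller there.

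Mir20a held 16.3% (15.7 to 16.9) and 15.6% (14.9 to 16.3), with intervals that overlap. Mir18 held 6.24% (5.85 to 6.66) in replicate 1 and 4.74% (4.33 to 5.18) in replicate 2. Mir19a and Mir19b-1 together add less than the width of those intervals.

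**Figure D2:**
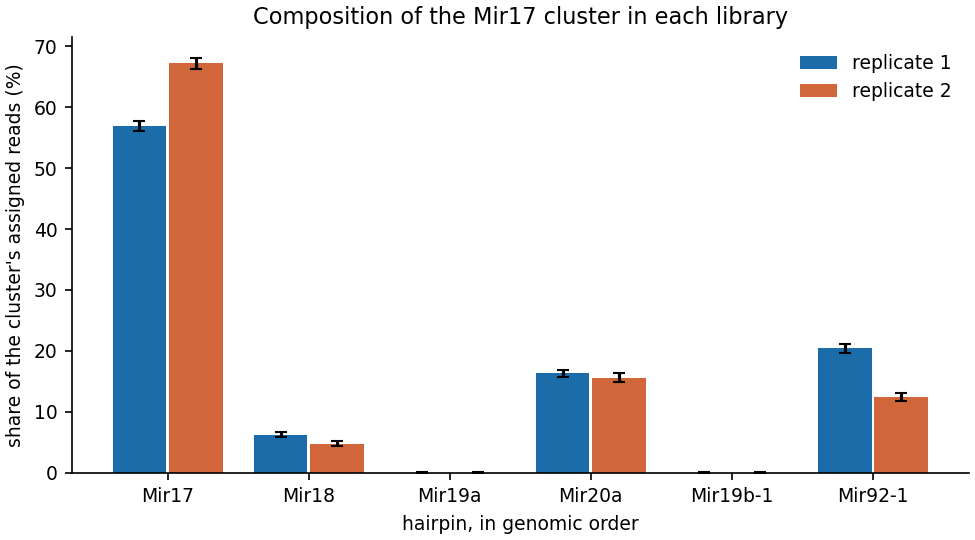
Share (%) of the cluster's assigned reads held by each hairpin in replicates 1 and 2, with 95% Wilson intervals, in genomic order. Mir17 stands at 56.96% and 67.2%, Mir92-1 at 20.4% and 12.4%, and the bars of Mir19a and Mir19b-1 are too low to see.

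The libraries were then compared gene by gene with Fisher's exact test (two-sided) on reads, over the 542 genes at 2 CPM or more in either library. A gene was called where its Benjamini-Hochberg adjusted p was under 0.05 and its levels differed by 1 or more on the log2 scale. By this rule 12.0% of tested genes and 0 of the 5 tested members were called. Mir19b-1 did not reach the minimum and was not tested. Without a minimum on the ratio 42.3% of genes and 3 of 5 members were called. Of all tested genes 17.3% were then called higher and 24.9% lower in replicate 2, against 1 and 2 of the members. Such a test bears on the reads of these libraries, not on any condition or on other animals. A share of 3 in 5 cannot be set apart from the background.

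Mir17 was 1.25 times as high in replicate 2 (log2 ratio 0.32, 95% counting interval 0.27 to 0.36, Fisher's exact test with Benjamini-Hochberg adjusted p = 2.86e-37). Mir92-1 was lower in replicate 2, at 0.642 times its CPM in replicate 1 (log2 ratio -0.64, -0.74 to -0.54, adjusted p = 5.90e-38 by the same exact test). Mir18 was also lower, at 0.801 times (log2 ratio -0.32, -0.49 to -0.15, adjusted p = 0.000461 by the same exact test). The counted reads of members of the same transcript thus went opposite ways between the libraries. For Mir92-1 these are taken to leave out reads that also fit Mir92-2.

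Mir20a had a log2 ratio of 0.01 (-0.08 to 0.11, adjusted p = 0.866 by the same exact test). For Mir19a the log2 ratio was -0.49, and with 7 and 3 reads its interval ran from -3.19 to 1.52. These values sit well within the range of the other genes. The median size of the log2 ratio was 0.32 over the 4 detected members and 0.35 over all 442 detected genes. Among the detected genes 72.4% had a smaller ratio in size than Mir92-1, 46.2% than Mir17, 47.3% than Mir18 and 2.49% than Mir20a.

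**Figure D3:**
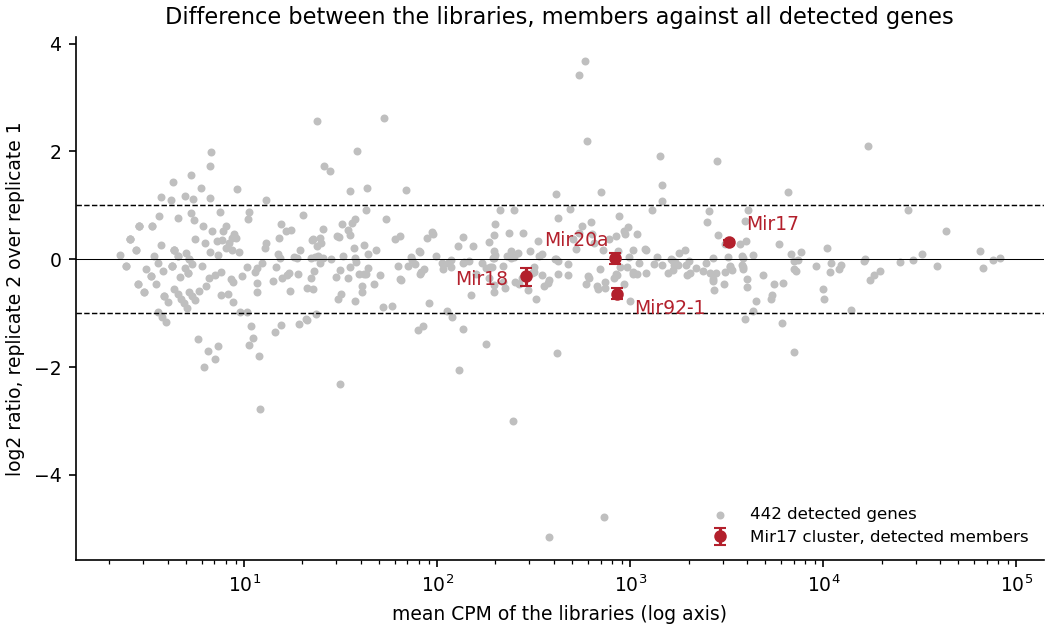
Log2 ratio of CPM, replicate 2 over replicate 1, against mean CPM (log axis) for the 442 detected genes (grey) and the 4 detected members (red, with 95% exact binomial counting intervals). The dashed lines mark a log2 ratio of 1 in either direction, and the members lie between -0.64 and 0.32.

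The ratio of Mir17 to Mir92-1 in counted reads differed between the libraries. It was 2.79 in replicate 1 (exact binomial 95% interval 2.67 to 2.92) and 5.41 in replicate 2 (5.08 to 5.77). Mir17 over Mir20a, which bear the same seed, was 3.49 (3.33 to 3.66) and 4.31 (4.07 to 4.56). Such ratios within a library do not depend on how its total is scaled. The counts of Mir92-1 are still taken to leave out reads that also fit Mir92-2, so its ratio is not one of mature miRNAs.

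The summed level of red blood cell markers was, like Mir92-1, lower in replicate 2. All 3 genes of that list were detected and none was at 0. Their summed level was 814 CPM in replicate 1 and 56.6 CPM in replicate 2, and the difference came from Mir451a (737 and 20.6 CPM) and Mir144 (52.3 and 10.3 CPM). The third gene, Mir486, had 25.4 and 25.7 CPM and did not share it. Their part in the difference of Mir92-1 was not tested. Replicate 2 also had more unmapped reads, 42.4% against 25.5%.

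Of the labelled tissue's markers, 6 of 10 neuronal genes were detected, led by Mir128-1 at 13876 ± 6174 CPM. The 3 genes of miR-124 had at most 10 reads each. Reads that fit several genes are taken to be counted for none. Low counts for a miRNA with several genes thus do not give its level. The neuronal list summed to 39774 CPM in replicate 1 and 30206 in replicate 2, but its genes did not move together. Mir137 had 11808 and 8069 CPM and Mir132 had 3886 and 9221 CPM. The oligodendrocyte list summed to 834 and 1423 CPM, the endothelial Mir126a to 9622 and 11137 CPM, and the microglia and leukocyte list to 949.995 and 723 CPM. In the oligodendrocyte list Mir219a-1 (20.9 and 17.1 CPM) went against the sum, as did Mir223 (14.6 and 15.4 CPM) in the microglia and leukocyte list. Both had at most 56 reads in a library. The liver gene Mir122 had 55.6 and 45.1 CPM and the muscle gene Mir206 21.7 and 25.7 CPM. The part of these lists in the members' levels was not tested.

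The Mir17 cluster has 2 related clusters that arose by duplication, the Mir106a-363 cluster of 6 hairpins on the X chromosome and the Mir106b-25 cluster of 3 hairpins in the DNA replication gene Mcm7 on chromosome 5. Their values show where the Mir17 cluster differs. Summed over hairpins, the reads of the Mir17 cluster were 1.06 times those of the Mir106b-25 cluster in both libraries (exact binomial 95% intervals 1.04 to 1.09 and 1.03 to 1.09). The Mir106b-25 cluster had 4795 and 5076 CPM, against 5096 and 5380 CPM for the Mir17 cluster. No arm of its 3 hairpins occurs whole in another listed hairpin, whereas Mir19b-1 and Mir92-1 have a copied strand. Of these 2 sums, reads of copied strands are thus taken to be left out only of that of the Mir17 cluster.

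The Mir106a-363 cluster was far lower, at 68.3 and 66.9 CPM. The Mir17 cluster had 74.6 times its reads in replicate 1 (64.5 to 86.8) and 80.5 times in replicate 2 (67.1 to 97.4). With 2 libraries an exact paired permutation test cannot go below p = 0.50, so no test over samples is given for these ratios. The order of the 3 sums was the same in both libraries. Without the genes that have a copied strand, the ratio of the Mir17 cluster to the Mir106b-25 cluster was 0.886 as a geometric mean, so which of these sums is larger turns on Mir92-1.

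Members that correspond to each other by sequence were compared next. miR-17-5p differs from miR-106a-5p at 1 base (U10A), and its hairpin had 199 times the reads of Mir106a in replicate 1 (146 to 281) and 141 times in replicate 2 (105 to 193). Mir20a had 44.5 times the reads of Mir20b (33.6 to 60.2) and 54.4 times (37.2 to 82.8). Mir18 had 426 times the reads of Mir18b in replicate 1 (118 to 3523) and 446 times in replicate 2 (79.6 to 17655), where Mir18b had 2 reads and 1 read.

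Mir92-1 had 55.7 times the reads of Mir92-2 in replicate 1 (42.1 to 75.2) and 35.4 times in replicate 2 (25.1 to 51.7), although both hold the same miR-92a-3p. Reads that fit both copies are taken to be in neither count, so this compares the reads that can be told apart. Mir19b-2 had 1 read and 0 reads, where 0 reads allow up to 1.71 CPM by the 3-read limit, so the pair Mir19b-1 and Mir19b-2 gives no ratio. In the same X-linked cluster Mir18b had 2 reads and 1 read. Mir18b and Mir19b-2 stayed under 3 reads in each library, and their order cannot be told.

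**Figure D4:**
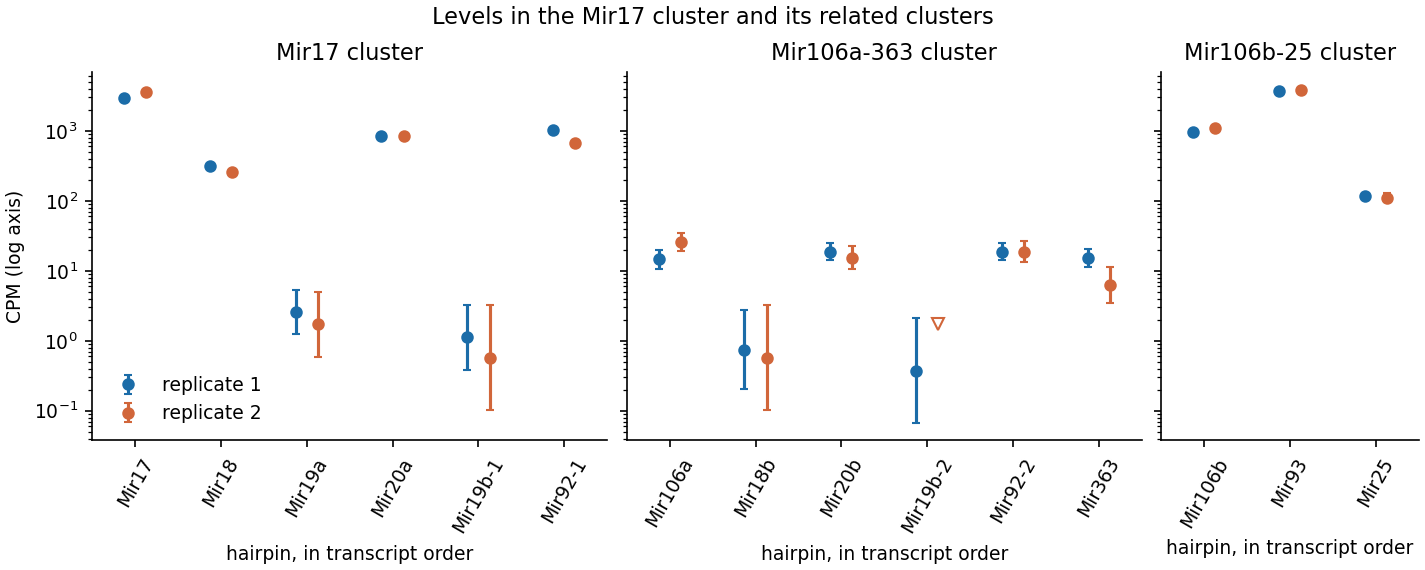
CPM (log axis) of each hairpin of the Mir17, Mir106a-363 and Mir106b-25 clusters in replicates 1 and 2, with 95% Wilson intervals, in transcript order. The open triangle marks the level of 3 reads where no read was counted. Mir17 and Mir93 stand highest, at 2903 to 3878 CPM, and every hairpin of the X-linked cluster is at or below 25.7 CPM.

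Counts here are taken to leave out reads shared with the copies of miR-19b-3p and miR-92a-3p. By seed, most counted reads of the cluster came from the miR-17 family. Its members Mir17 and Mir20a summed to 3734 CPM in replicate 1 and 4455 CPM in replicate 2, a mean of 4095 ± 509.8 CPM (SD, n = 2). Among the 7 genes that carry this seed in RefSeq, the share of the cluster's members was 44.2% in replicate 1, with a 95% Wilson interval from 43.6 to 44.9, and 47.1% in replicate 2, from 46.3 to 47.9. Most of the rest came from Mir93, at 3794 ± 118 CPM. Mir93 stood at 1.28 times Mir17 in replicate 1 (1.24 to 1.32) and 1.07 times in replicate 2 (1.04 to 1.11). Mir106b held 11.5% of the family in both libraries, and Mir6383, the last of the 7 genes and also named after the sequence table had been read, had 0 reads.

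These strands carry the seed of miR-17-5p and are shown because together with Mir17 and Mir20a they make up nearly all counted reads of the family.
miR-93-5p of Mir93: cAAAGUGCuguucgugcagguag
miR-106b-5p of Mir106b: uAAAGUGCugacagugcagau

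For the miR-18 seed, carried by 2 genes, Mir18 held 99.8% of the reads in both libraries. The miR-19 seed is carried by 3 genes, which together had 11 reads in replicate 1 and 4 in replicate 2. None of the 3 was detected. Mir19b-1 and Mir19b-2 both hold miR-19b-3p whole, and reads that fit both are taken to be counted for neither. These low counts thus do not give the level of the miR-19 family.

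The miR-92 seed gave another picture, since most counted reads of the hairpins that carry it came from outside the cluster. Of 7 genes with the seed, Mir92-1 held 22.6% of the reads in replicate 1 (21.9 to 23.4) and 18.1% in replicate 2 (17.2 to 19.1). Mir92b, which lies at another locus and was named after the sequence table had been read, held 73.1% and 77.1%. It had 9000 and 4972 reads, a mean of 3101 ± 368 CPM. Reads that fit both Mir92-1 and Mir92-2 are taken to be in none of these shares. The shares thus do not give the part of each locus in the mature miRNAs with this seed. Mir92b was not searched for a strand copied in another hairpin.

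Of the other genes with this seed, Mir25, the low hairpin of the Mir106b-25 cluster, had 114 ± 3.86 CPM and Mir32 had 43.7 ± 3.65 CPM. Mir92-2 had 18.7 and 18.9 CPM and Mir363 had 15.3 and 6.29 CPM. Mir367, a miRNA of pluripotent cells, had 0 reads in both libraries, and the limit that this allows, set at 3 reads, is 1.12 and 1.71 CPM. Of the 11 related genes 8 were tested. With the minimum on the ratio 1 was called, against 12.0% of all tested genes. This was Mir363, with 41 and 11 reads and a log2 ratio of -1.24 (-2.39 to -0.30, adjusted p = 0.0169 by Fisher's exact test). Without it 4 were called, 3 higher and 1 lower in replicate 2, against 42.3% of all tested genes, so that neither count can be set apart from the background. The 3 were Mir106a (log2 ratio 0.82), Mir106b (0.17) and Mir93 (0.06).

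The detected genes whose levels in the 2 libraries came closest to those of Mir17, by Euclidean distance of log2(CPM + 1), were Mir1983 (distance 0.10), Mir138-1 (0.20) and Mir323 (0.26). For Mir92-1 they were Mirlet7c-1 (0.21), Mir181a-1 (0.23) and Mir467d (0.25). Mir1983 had 2794 and 3406 CPM, and Mirlet7c-1 919 and 725 CPM. Likeness over 2 libraries of 1 tissue says only that the levels were close.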

How the data were processed

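For each of the 2 libraries the authors deposited unnormalized read counts by miRNA gene, against mm10 and GENCODE M21 per the labels and the text filed with each sample. For the aligner, counter and trimming the entry is: not given in the sources used here. Column 3, the reads on the gene's strand by its values, was divided by its sum over genes. The 4 rows naming no gene were left out: in replicates 1 and 2 unmapped reads were 25.5% and 42.4% of all reads, multimapped reads 38.2% and 28.3%, reads outside genes 6.93% and 5.74%, and ambiguous reads 0 in this column. CAST alleles were not considered. The spread between these libraries may be partly technical.

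The deposited files hold gene identifiers only, and symbols were matched through GENCODE M21. Log2 ratios add 0.5 reads. Fisher's exact test with Benjamini-Hochberg adjustment ran over all genes at 2 CPM or more and was tested on simulated data. Apart from genes changed on purpose, the simulated counts varied by counting error alone and held no spread between animals. Alternatives used edgeR 4.0.16 and DESeq2 1.42.0 totals in R 4.3.3. Python 3.11.15, scipy 1.17.1 and RNAfold 2.7.2 did the rest. All members and fixed related genes were named, with the 3 genes nearest to Mir17 and Mir92-1. Members and lists were chosen with earlier results of these data known.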

Additional observations from a re-analysis of the deposited data

How the results depend on the processing

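No member passed the library test with the minimum on the ratio under TMM or DESeq2 totals, the unstranded column, no filter on low counts or a 10 CPM minimum (Fisher's exact test), and 3 did without the minimum on the ratio, when calls over all genes went from 65 to 229. Each member tested kept its direction under each of these; Mir19a was not tested at the 10 CPM minimum, and Mir19b-1 did not reach the minimum of the reported test. TMM and DESeq2 totals moved the log2 ratio of Mir17 to 0.37 and 0.39 and that of Mir92-1 to -0.58 and -0.57. The cluster's share of 0.524% was 0.560% with the unstranded column, whose total is smaller, 0.211% of all mapped reads, and 0.438% without Mir19b-1 and Mir92-1, and ran from 0.510% to 0.538% with a single library. Mir17 stood 4049-fold above Mir19b-1 as a geometric mean, 2591 to 6328 by library and 4194 per base. Without the members that have a copied strand, the lowest was Mir19a, 1531-fold below. Leaving out genes with a copied strand moved the ratio to the Mir106a-363 cluster from 77.5 to 89.9, and that to the Mir106b-25 cluster from 1.06 to 0.886, so which of those sums is larger depends on Mir92-1. By library those ratios were 74.6 to 80.5 and 1.06 to 1.06. No paired analysis was possible because there is 1 group. Depth limits Mir19a and Mir19b-1, which had at most 7 reads.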
